A study of Homo sapiens with 6 samples.

Results

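Solitary END-seq peaks at the 3' ends of genes mark DNA ends that were called in both replicates on 1 strand but not on the other. They lie close to where transcription units finish. A peak counted as solitary when it overlapped a same-strand peak of the other replicate of that time and no such replicated peak of the opposite strand lay within 150 bp. Those kept had their midpoint from 2 kb inside to 5 kb past the 3' end of a protein-coding gene of at least 20 kb on chromosomes 1 to 22, with no 5' end of another gene within 10 kb. These criteria left 5979 gene ends, 3068 on the plus and 2911 on the minus strand, of 11217 protein-coding genes of that length. They held 4542 solitary peaks of 280828 in the whole series, 2722 of 174558 after 10 min of camptothecin (CPT) and 1820 of 106270 after 20 min.

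The cells were HCT116, an established human colorectal carcinoma line, and the series compared untreated cells (Ctrl) with cells given 10 µM CPT for 10 min (CPT10) or 20 min (CPT20), with 2 biological replicates per condition. The sample names of the CPT20 libraries read 20 µM, whereas the treatment protocol gives a single dose and 2 durations, and the protocol was followed here. Murine pre-B cells were added to each as a spike-in, whose scaling does not enter the peak lists. The peaks are those of the 4 libraries with CPT, and Ctrl entered only as the input of peak calling, so the values below have no background measured in the same way in untreated cells, and presence in a treated library was not separated from breaks that the cells already had.

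CPT holds DNA topoisomerase I (Top1) on DNA in the nicked state, as a cleavage complex. When a replication fork runs into such a nick on a template strand, the copy can run off the end and leave a break with a single free end, whereas a break across both strands of a duplex leaves a pair of ends that face each other. END-seq ligates an adapter to each free end and reads away from it, which places a reverse-strand peak to the left of an end pair and a forward-strand peak to its right, and a lone strand is the form that a single free end would take. Top1 relaxes the supercoils that RNA polymerase II makes, and the polymerase goes on past the polyadenylation site before it terminates, so the zone around a 3' end is still transcribed. A peak is called sense below when its strand is that of the gene, meaning that the sequenced DNA extends from the break in the direction of transcription, and antisense otherwise. Only the gene of the nearest eligible end counts in this. A peak antisense to that gene may therefore be sense to another gene that overlaps.

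The peaks are intervals, and the edge nearest to the break is the left edge of a forward peak and the right edge of a reverse peak. Solitary peaks join the overlapping peaks of both replicates, so this edge is the outermost of theirs and need not be the break. For 4 of the peaks described below, the 30 bases at that edge are shown, so that a reader can find it. These peaks were present at both times, lay past the annotated end and overlapped no exon. Each sequence is written 5' to 3' on the strand of the peak, from the GRCh37 assembly, the same build as the hg19 of the peak lists. The 15 bases before the edge are in lower case and the first 15 bases of the peak in capitals.
EFCAB13, plus-strand gene, forward peak, chr17:45520089-45520118, plus strand: acctcacaatcatggTGGAAGGCGAATGAG
MSRB3, plus-strand gene, reverse peak, chr12:65889058-65889087, minus strand: cctgcccccaaccctCAGTTCCCCTTCTGC
DAGLB, minus-strand gene, forward peak, chr7:6446069-6446098, plus strand: aacaactgttgtacaTTACTTCTGGCTGGG
TCAF1, minus-strand gene, reverse peak, chr7:143547084-143547113, minus strand: tcattgctggactaaTTTACAACAGCATAT

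The libraries differed in how many peaks were called. A single-strand peak of a library had no opposite-strand peak of the same library within 150 bp, and this measure, which uses 1 library at a time, allowed the 4 libraries to serve as replicates. The number of single-strand peaks was 1126877 and 889155 in CPT10 replicates 1 and 2 and 980419 and 517098 in CPT20 replicates 1 and 2, of which 17300, 13394, 15935 and 8014 lay in the 3' end windows. CPT10 replicate 1 also had an uneven pair of lists, with 591881 forward and 826744 reverse peaks, while forward and reverse lists of the other 3 libraries were of similar length. Read depth is unknown from these files, and intervals given for peaks cover counting error only.

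Solitary peaks were spread thinly over many genes. After 10 min 2107 gene ends, or 35.2% of those eligible, held at least 1, and after 20 min 1472 did, or 24.6%. Most of these genes had a single peak, 1613 at 10 min and 1185 at 20 min, and 17 and 10 genes had 4 or more, with up to 5 and 6 peaks at a gene. The same gene held a peak at each time in 700 cases, 2879 genes held one at either time and the other gene ends had none. How many ends would be shared if the times were unrelated was not computed. The peaks had a median width of 362 bp at 10 min, with quartiles of 271 and 479 bp, and of 417 bp at 20 min, with quartiles of 317 and 562 bp.

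Solitary peaks were slightly denser at gene 3' ends than in the genome, and about as dense as farther inside the same genes. Per Mb of sequence, the solitary peaks numbered 69.3 in the windows against 64.2 over chromosomes 1 to 22 after 10 min, and 46.3 against 39.2 after 20 min. Single-strand peaks of the separate libraries gave window densities of 440, 341, 406 and 204 per Mb, in the order CPT10 replicates 1 and 2 and CPT20 replicates 1 and 2, against 420, 331, 365 and 193 per Mb over the chromosomes. The windows were the denser in all 4 libraries, by 1.03 to 1.11 times (mean log2 ratio 0.09 ± 0.05, SD, n = 4), and the exact two-sided sign-flip test gave p = 0.13, the smallest that 4 libraries allow.

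From 9 to 2 kb inside the same genes the densities were 444, 345, 410 and 198 per Mb. The ratio of windows to interiors was 0.989 to 1.03 (mean log2 ratio 0.00 ± 0.03, SD, n = 4, exact sign-flip p = 1). The 2 kb past the end held 449, 341, 412 and 204 peaks per Mb and the last 2 kb of the gene 436, 355, 400 and 218 per Mb. From 5 to 12 kb past the end the densities were 435, 330, 409 and 186 per Mb, so that the last 2 kb of the gene stood at 1.00, 1.08, 0.977 and 1.17 times this level. The order of the zones just inside and just past the end differed between libraries, the density being higher past the end in both replicates 1 and lower in both replicates 2, with a mean log2 ratio of -0.02 ± 0.07 (SD, n = 4, exact sign-flip p = 0.625). Among the solitary peaks, 783 lay inside the end and 1939 past it after 10 min, and 544 and 1276 after 20 min. Per kb of distance from the end, with all gene ends added together, this is 391.5 and 387.8 peaks after 10 min and 272 and 255.2 after 20 min.

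Peaks at gene 3' ends were more often sense than antisense at both times. After 10 min plus-strand genes held 649 forward and 707 reverse solitary peaks, and minus-strand genes held 526 forward and 840 reverse. After 20 min plus-strand genes held 504 forward and 414 reverse peaks, and minus-strand genes 355 forward and 547 reverse. The excess of reverse over forward peaks at plus-strand genes after 10 min goes together with the long reverse list of CPT10 replicate 1, and the comparison was therefore made as an odds ratio, the product of both sense counts over the product of both antisense counts, in which the length of the lists cancels. This odds ratio was 1.47 (95% interval 1.26 to 1.71) after 10 min, with 1489 of 2722 peaks in sense (54.7%, Wilson 95% interval 52.8% to 56.6%). It was 1.88 (1.56 to 2.26) after 20 min, with 1051 of 1820 in sense (57.7%, 55.5% to 60.0%).

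The separate libraries gave the same order. The sense odds ratio of single-strand peaks in the windows was 1.34 (1.26 to 1.42) and 1.41 (1.32 to 1.51) in the CPT10 replicates and 1.37 (1.29 to 1.46) and 1.58 (1.44 to 1.72) in the CPT20 replicates. All 4 were above 1, with a mean log2 odds ratio of 0.51 ± 0.10 (SD, n = 4, exact sign-flip p = 0.13, the floor). CPT20 exceeded CPT10 by 0.10 on the log2 scale, less than the difference between the CPT20 replicates, and the exact permutation test gave p = 0.667 where the smallest value possible is 0.33. These p-values measure the spread between 4 libraries of 1 cell line. The study's methods list 2 experiments, each with untreated cells and both times, so libraries of an experiment may vary together. With the mean of both times per replicate number as the value, the log2 odds ratio was 0.44 for replicates 1 and 0.58 for replicates 2, and 2 experiments allow no exact sign-flip p below 0.5 in any of these comparisons.

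The strand preference was present in the gene body and faded past the end. Within 2 kb inside the end to 1 kb past it, the odds ratio of the solitary peaks was 2.04 (1.61 to 2.57) after 10 min, with 695 of 1186 in sense, and 2.76 (2.08 to 3.66) after 20 min, with 513 of 822 in sense. From 1 to 2 kb past the end it was 1.38 (0.926 to 2.07) and 1.99 (1.21 to 3.27), with 212 sense and 178 antisense peaks and then 150 and 106. From 2 to 5 kb past the end it was 1.07 (0.848 to 1.35) and 1.22 (0.916 to 1.63), with 582 of 1146 and 388 of 741 peaks in sense, and both intervals held 1.

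**Figure D1:**
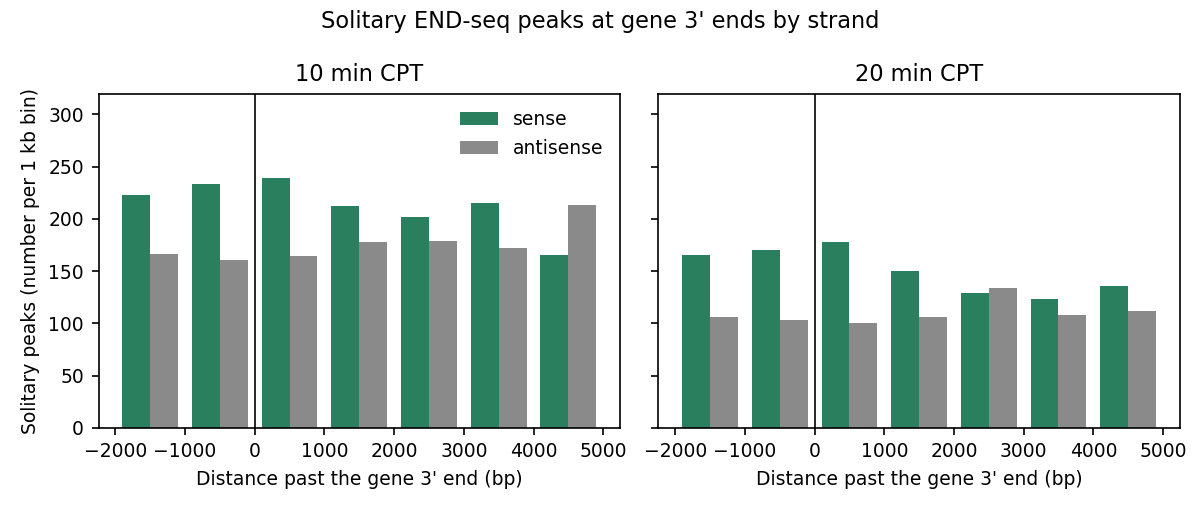
Number of solitary peaks per kb of distance from the annotated 3' end, from 2 kb inside to 5 kb past it, for sense and antisense peaks after 10 min and 20 min of CPT. The total stays nearly level across the end, and sense peaks outnumber antisense peaks in every kb from 2 kb inside to 2 kb past it at both times.

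Single-strand peaks of each library followed the same course. From 9 to 2 kb inside the gene the sense odds ratios were 1.60, 1.66, 1.68 and 1.89 in the order of the libraries above, and in the last 2 kb they were 1.56, 1.74, 1.55 and 1.81. In the first kb past the end they were 1.49, 1.64, 1.68 and 2.05, and in the next kb 1.22, 1.20, 1.30 and 1.55. They were 1.20 (1.10 to 1.32), 1.21 (1.09 to 1.35), 1.20 (1.09 to 1.32) and 1.29 (1.13 to 1.48) from 2 to 5 kb past the end, so that in the far larger number of single-strand peaks a smaller preference was still above 1 there. From 5 to 12 kb past it they were 1.06, 1.04, 1.08 and 1.08, where 3 of the 4 intervals held 1 and that of CPT20 replicate 1 (1.01 to 1.155) did not. From the last 2 kb of the gene to the zone 2 to 5 kb past the end, the log2 odds ratio fell by 0.44 ± 0.08 (SD, n = 4), in all 4 libraries, with an exact sign-flip p = 0.13. This contrast was chosen after the data were seen.

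Base composition moved along the same axis. On the gene strand the ratio of T to A was 1.06 from 9 to 2 kb inside and in the last 2 kb, 1.01 in the first 2 kb past the end, 0.981 from 2 to 5 kb and 0.974 from 5 to 12 kb past it. Its part in the strand preference was not tested.

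**Figure D2:**
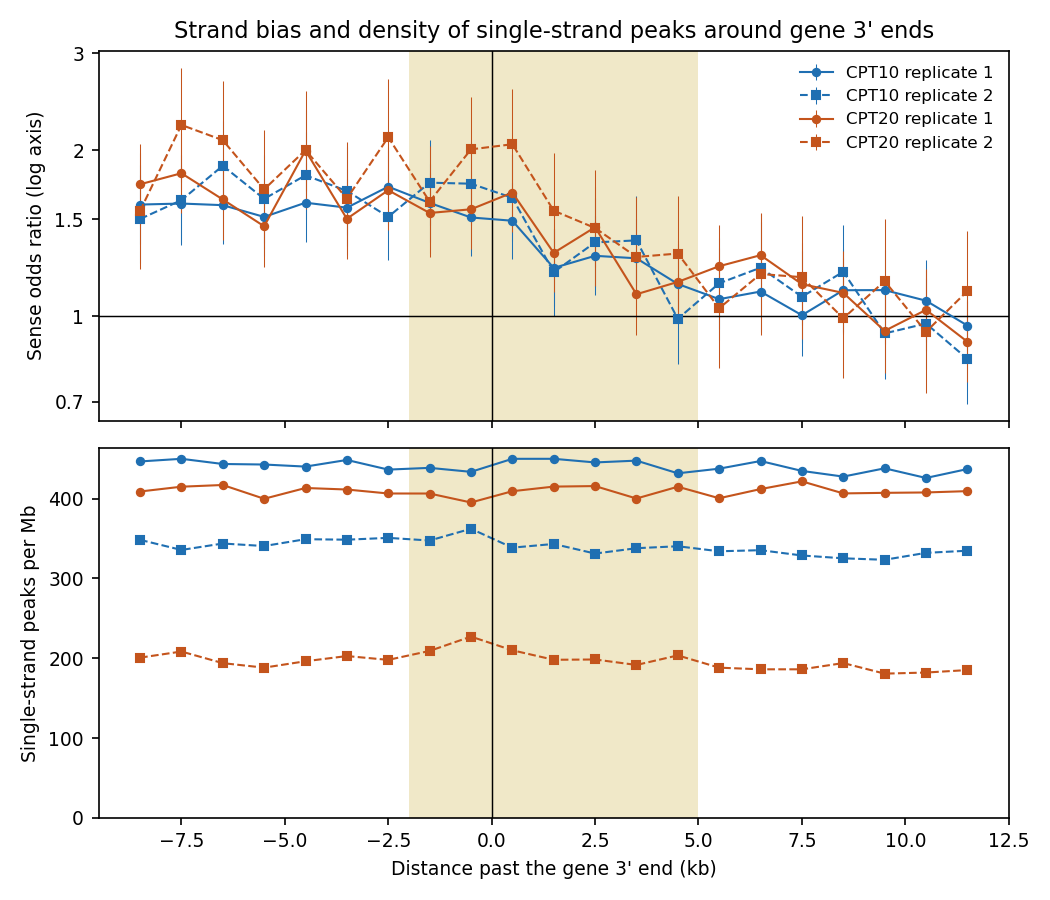
Density of single-strand peaks and their sense odds ratio, on a log axis, by distance from the annotated 3' end in each of the 4 libraries. Density in the last 2 kb is 0.977 to 1.17 times that from 5 to 12 kb past the end, highest in CPT20 replicate 2, while the odds ratio is 1.55 to 1.81 in the last 2 kb of the gene and 1.04 to 1.08 from 5 to 12 kb past it.

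Stronger single-strand peaks carried more of the preference, except in the highest class of CPT20 replicate 2. Among window peaks with a −log10 q-value under 2 the odds ratios were 1.09, 1.163, 1.03 and 1.15, with all 4 intervals holding 1. From 5 to 10 they were 1.49, 1.73, 1.48 and 1.85. At 10 and above they were 1.52, 2.12, 1.79 and 1.21, the last on 198 peaks of CPT20 replicate 2 with an interval of 0.683 to 2.13. Peaks in low-copy sequence, with under 20% of their 14-base words present 1000 times or more in the genome, gave 1.37, 1.40, 1.44 and 1.60. Solitary peaks did not follow this order throughout. At a −log10 q of at least 3, 55.9% and 58.4% were sense after 10 and 20 min, beside 54.7% and 57.7% of all. At 10 or more the shares were 51.3% and 55.0%, on 39 and 40 peaks.

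Genes over 200 kb had the strongest preference of the 4 length classes, and the 3 shorter classes did not follow an order of length. Genes over 200 kb numbered 985, and 260 of their 401 solitary peaks after 10 min were sense (64.8%, 60.0% to 69.4%), with an odds ratio of 3.38 (2.24 to 5.12). After 20 min 151 of 206 were sense (73.3%, 66.9% to 78.9%), with an odds ratio of 7.63 (4.10 to 14.2). At the 2136 genes of 20 to 50 kb, 557 of 1074 (51.9%) and 394 of 715 (55.1%) were sense, with odds ratios of 1.14 (0.897 to 1.46) and 1.52 (1.13 to 2.05). Genes of 50 to 100 kb had 50.5% and 53.3% in sense, and genes of 100 to 200 kb 58.2% and 59.9%.

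In the separate libraries, windows of genes over 200 kb had odds ratios of 2.08, 2.30, 2.54 and 3.10, against 1.12, 1.36, 1.164 and 1.39 at genes of 20 to 50 kb, so that the ranges of these classes did not overlap. The classes of 50 to 100 kb (1.19, 1.18, 1.11 and 1.21) and 100 to 200 kb (1.55, 1.28, 1.59 and 1.60) did not continue this order, since the 50 to 100 kb class lay below the 20 to 50 kb class in 3 of the 4 libraries. The odds ratio at genes over 200 kb was 1.69 to 2.23 times that at genes of 20 to 50 kb in the 4 libraries (mean log2 difference 0.99 ± 0.19, SD, n = 4, exact sign-flip p = 0.13), again a contrast chosen after the data were seen. It was 1.78 times at CPT10 and 2.21 times at CPT20, a difference with an exact permutation p = 0.33, the smallest possible.

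The preference of the long genes also reached farther past the end. From 5 to 12 kb past it their odds ratios were 1.26, 1.82, 1.45 and 1.87, with all 4 intervals above 1, whereas genes of 20 to 50 kb had 0.982, 0.922, 0.961 and 0.837. Of these, 3 intervals held 1 and that of CPT20 replicate 2 (0.711 to 0.986) lay below it. The T to A ratio in the last 2 kb was 1.05, 1.06, 1.06 and 1.05 in the 4 length classes from the shortest, and over the whole windows it was 1.01 in genes of 20 to 50 kb and 0.999 in those over 200 kb, while the GC content of the windows was 44.4% and 41.3%. The part of base composition in the difference by length was not tested.

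**Figure D3:**
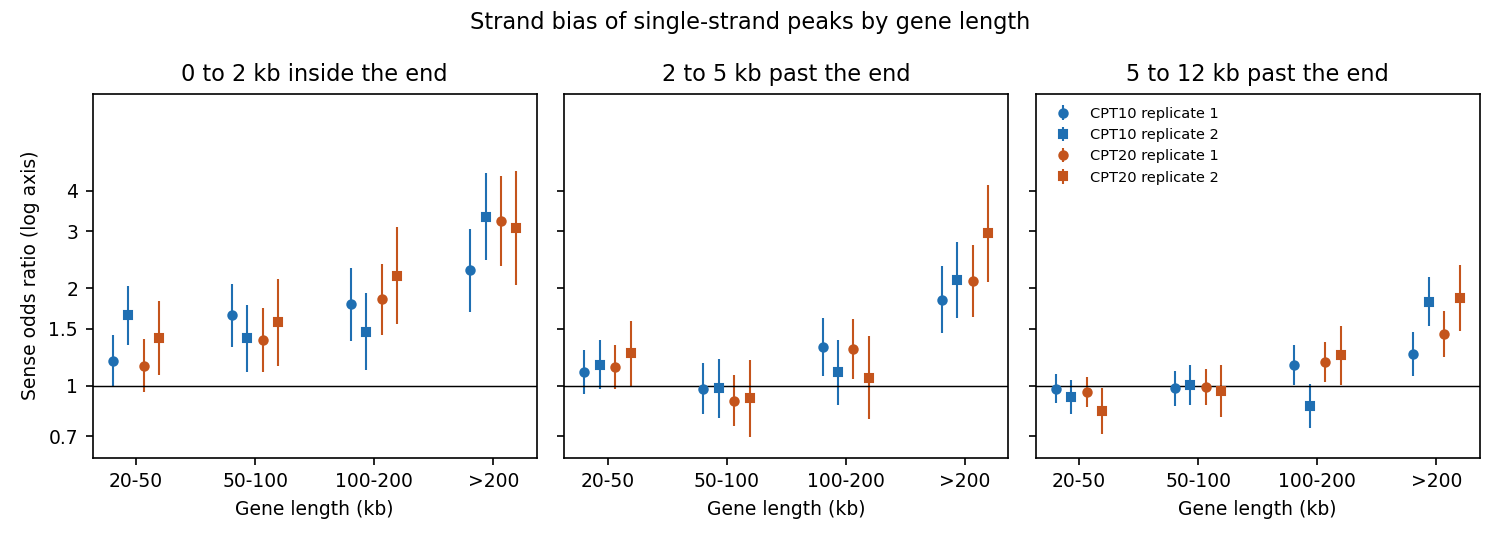
Sense odds ratio, on a log axis, of single-strand peaks of each library by gene length class, in 3 zones along the gene end, with 95% intervals from the peak counts. Genes over 200 kb lie highest in each zone, and in the zone from 5 to 12 kb past the end genes of 20 to 50 kb lie at 0.837 to 0.982.

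Gene length bore on density in the other direction. Windows of genes over 200 kb held 413, 336, 353 and 200 single-strand peaks per Mb and those of genes of 20 to 50 kb 455, 348, 432 and 205. The long genes were lower in all 4 libraries, at 0.817 to 0.976 times (mean log2 ratio -0.13 ± 0.12, SD, n = 4, exact sign-flip p = 0.13), in CPT20 replicate 2 the classes were almost equal, and without CPT20 replicate 1 the mean was -0.076.

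Convergent ends had slightly more peaks. At 663 ends the 3' end of another protein-coding gene on the opposite strand lay within 5 kb, and these windows held 485, 353, 469 and 222 single-strand peaks per Mb, against 437, 340, 400 and 202 at the other 5316 ends. The ratio was 1.11, 1.04, 1.17 and 1.10 (mean log2 0.14 ± 0.07, SD, n = 4, exact sign-flip p = 0.13). Convergent windows also had the higher GC content, 46.0% against 42.7%, and its part in the difference was not tested. Sense and antisense have little meaning there, since each strand is the sense strand of 1 gene of the pair, and 131 of 253 solitary peaks were sense after 10 min and 95 of 179 after 20 min.

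Few of the same peaks were found at both times, about as many as elsewhere in the genome. Of the 10 min peaks, 243 (8.93%, 7.91% to 10.1%) overlapped a solitary peak of the same strand at 20 min by at least 1 bp, beside 8% of all solitary peaks on chromosomes 1 to 22. Of the 20 min peaks, 247 (13.6%, 12.1% to 15.2%) overlapped one at 10 min, beside 13% of all. The backgrounds lay inside the intervals. These 243 peaks of 10 min belonged to 225 genes. Of them 134 were sense (55.1%), beside 54.7% of all 10 min peaks at gene ends. Past the end lay 180 of the 243, beside 1939 of all 2722. An annotated exon was overlapped by 79, a count with no share over all end peaks to set beside it.

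Presence of a strand alone is a matter of what was called on the other. After 10 min 31.1% of the solitary peaks at gene ends had a peak of the opposite strand within 150 bp in 1 library that the other replicate lacked, and after 20 min 26.6% had one, close to the 29.9% and 25.6% of all solitary peaks. Without these peaks 55.9% and 58.2% of the peaks were sense. The peaks at gene ends were about as high as other solitary peaks, with median −log10 q-values of 5.57, 3.72, 5.999 and 4.10 in the 4 libraries against 5.57, 3.72, 5.26 and 4.10.

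The 8 peaks described here by name were found at both times and were the leading ones by rank of −log10 q-value in each combination of gene and peak strand. Since rank chose them, their heights are a description. A pair on chromosome 8 stood far above the rest. At SLC18A1, which encodes a vesicular monoamine transporter, a forward, antisense peak inside the end of this minus-strand gene and within an exon had −log10 q-values of 223, 439, 174 and 110 and fold enrichments of 59.0, 125, 51.5 and 40.2. The nearest opposite-strand peak of either replicate was 5717 bp away at 10 min and 6315 bp at 20 min.

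At FBXO32, a muscle-atrophy ubiquitin ligase component, a reverse, sense peak 1784 bp past the end had −log10 q-values of 230, 432, 103 and 76.1. An unreplicated peak of the opposite strand overlapped it at both times, so that it was solitary only by the replication criterion. Both peaks had lower −log10 q-values at 20 min than at 10 min in either replicate, on a scale that also moves with depth.

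The other leading peaks had −log10 q-values between 6.70 and 30.6. At EFCAB13, a gene for an EF-hand protein, a forward, sense peak 1926 bp past the end had values of 13.99, 21.4, 16.2 and 6.70, and its edge is the first sequence shown above. At MSRB3, a methionine sulfoxide reductase gene of 212788 bp, a reverse, antisense peak 3465 bp past the end had 28.6, 8.48, 23.9 and 7.70. At both genes the replicates of a time differed by more than the mean values of the times. An unreplicated reverse peak overlapped that of EFCAB13 at 10 min, and none of the opposite strand lay within 150 bp at MSRB3.

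DAGLB, a diacylglycerol lipase gene, had a forward, antisense peak 2546 bp past its end with values of 18.4, 11.8, 12.9 and 7.67. TCAF1, which encodes a TRP channel-associated factor and has a close paralog beside it, had a reverse, sense peak 1879 bp past the end with 13.1, 11.9, 15.3 and 9.78. Reads that fit both copies equally may have been lost at the mapping quality threshold. An unreplicated opposite-strand peak overlapped that of DAGLB at 10 min, and none lay within 150 bp at TCAF1. RXYLT1, a glycosyltransferase gene, had a sense peak over an exon in its last 2 kb with 17.3, 11.8, 13.96 and 14.5, and an unreplicated opposite-strand peak overlapped it at 10 min. SRSF5, a splicing factor gene, had an antisense peak over an exon in its last 2 kb with 17.5, 11.9, 30.6 and 7.70, and an unreplicated opposite-strand peak lay 9 bp away at 20 min.

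**Figure D4:**
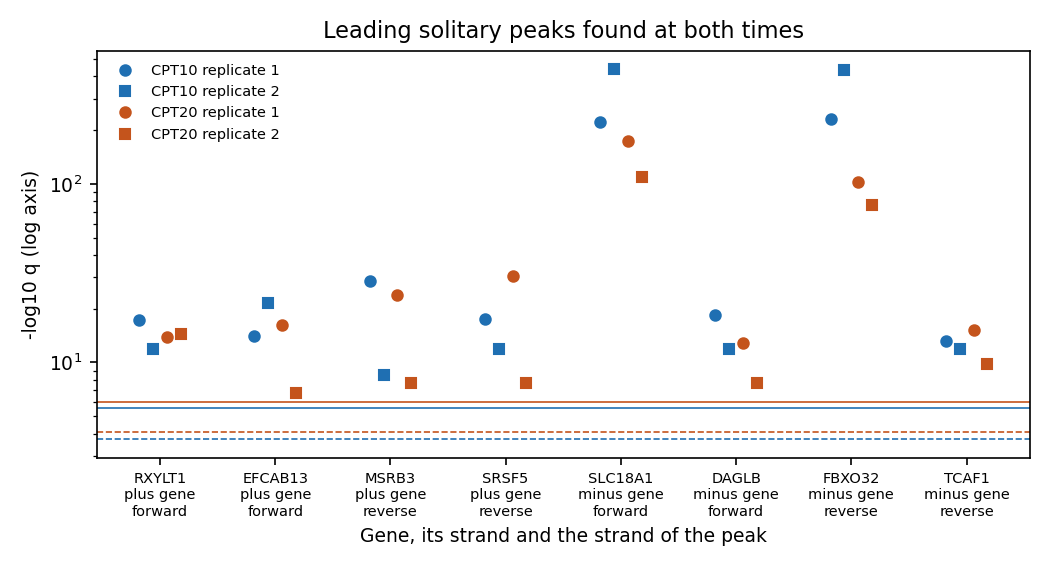
The −log10 q-value, on a log axis, of the 8 leading peaks found at both times, with 1 point per library and lines at the median of all solitary peaks at gene 3' ends in each library (5.57, 3.72, 5.999 and 4.10). SLC18A1 and FBXO32 lie at 76.1 to 439 in all libraries, and the other 6 genes at 6.70 to 30.6.

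Of the genes with peaks found at both times, TCAF1 had 3 such peaks and 16 genes had 2. At 12 of these 17 genes all peaks of both times were on 1 strand, sense at 5 and antisense at 7. These peaks include a site found at both times once per time, and the share of such genes among other ends with several peaks was not computed. Some peaks of a gene also lie side by side, as at TCAF1 (1879, 2846 and 3739 bp past the end), PPP3CA (1745 and 2371 bp) and OR4N2 (2231 and 2775 bp). The 12 genes with the most peaks of both times in all are named here, a choice within the tie at 2, and OR4N2, PPP3CA, C1QTNF1, NOTCH2NLC and ZNF335 are the others. Among the named genes with all peaks on 1 strand, TCAF1 and EFCAB13 had sense peaks. The antisense genes were MRPS22, MAVS, HIF1AN, AATK, ZHX1-C8orf76 and POU5F1B. MRPS22, a mitochondrial ribosome protein gene, had 3 antisense peaks at each time. Its 10 min peak 1995 bp past the end overlapped an annotated exon outside MRPS22, and other genes at these ends were not examined. MAVS, the adaptor of antiviral RNA sensing, had 3 and 3, and HIF1AN, which encodes the asparaginyl hydroxylase of hypoxia-inducible factor, had 3 and 2. AATK had 3 and 2, ZHX1-C8orf76 had 3 and 2, and POU5F1B had 2 and 3.

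TRA2B, a splicing factor gene, had the most peaks, 4 sense and 1 antisense after 10 min and 4 sense after 20 min. PCYOX1, a convergent gene for prenylcysteine oxidase, had 1 sense and 4 antisense and then 3 antisense peaks. SMURF2, a ubiquitin ligase gene, had 2 sense and 1 antisense and then 1 of each, and ENDOV, an endonuclease gene, had 2 sense and 1 antisense and then 2 sense peaks. Peaks of 1 gene share a locus and are not independent, and 8 of the 17 genes lie on chromosomes 8, 10 or 17. These chromosomes have 268, 312 and 184 of the 5979 eligible ends, and 222, 173 and 149 of the 2722 peaks of 10 min.

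Gene ends on some chromosomes held more peaks. HCT116 carries gains of arms of chromosomes 8, 10, 16 and 17, and their 912 eligible ends held 67.4 solitary peaks per 100 ends after 10 min and 45.5 after 20 min, against 41.6 and 27.7 at the 5067 ends of the other 18 autosomes. Blocks of raised peak density on these chromosomes were known from the same data, so the higher level of the group is a description. Chromosomes 8 and 17 led with 82.8 and 81.0 per 100 ends after 10 min. Chromosome 10 had 55.4 and chromosome 16 had 48.0, below the 52.1 of chromosome 20. After 20 min chromosome 16 had 39.9, above the 37.3 of chromosome 19. Copy number was not measured in these files and its part in this was not tested. The strand preference was alike, with odds ratios of 1.42 and 1.67 on these 4 chromosomes and 1.48 and 1.94 on the others.

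Lists of epithelial, housekeeping, and neuronal or muscle genes were set beside all eligible ends, without a test. Of 18 eligible genes of epithelial cells 11 (61.1%) held a solitary peak after 10 min and 8 (44.4%) after 20 min. Of 13 housekeeping genes 8 (61.5%) and 6 (46.2%) did, and of 29 neuronal or muscle genes 10 (34.5%) and 6 (20.7%), while the shares over all eligible genes were 35.2% and 24.6%. In single-strand peaks per Mb the windows of housekeeping genes held 615, 418, 472 and 319 in the 4 libraries and those of epithelial genes 476, 452, 468 and 286, each above the 440, 341, 406 and 204 of all windows. Neuronal or muscle genes held 369, 350, 384 and 251 and were below that level in both replicates 1. Some listed genes lie on chromosomes 8, 10 or 17, where gene ends held more peaks. They are RAD21, SMC3, POLR2A and CLTC of the housekeeping list and CDH17, PLEC, ITGB1, TCF7L2 and AXIN2 of the epithelial list. CSMD1, CSMD3, PCDH15 and MYH1 are those of the neuronal or muscle list. The lists also differ in gene length. Eligible genes ran from 26236 to 2473540 bp in the neuronal or muscle list. They ran from 28843 to 370994 bp in the housekeeping list and from 33086 to 269548 bp in the epithelial list. The parts of chromosome and gene length in these densities and in the sense counts below were not tested. Epithelial genes had 10 of 14 solitary peaks in sense after 10 min and 4 of 14 after 20 min, housekeeping genes 10 of 16 and 8 of 9, and neuronal or muscle genes 10 of 13 and 5 of 8, beside 54.7% and 57.7% in sense over all ends.

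SMAD4, XRN1, RAD21 and CSMD3 were the listed genes that held a peak found at both times. SMAD4, the shared mediator of TGF-beta signalling, had an antisense peak 1689 bp past its end with −log10 q-values of 11.1, 3.75, 10.9 and 4.93, and at 20 min it had 4 antisense peaks where 10 min had 1. XRN1, the cytoplasmic 5' to 3' exonuclease, had a sense peak 563 bp past its end with 10.1, 2.95, 20.0 and 3.31. RAD21, a cohesin subunit, had a sense peak over an exon with 12.1, 6.45, 5.26 and 10.9, and the neuronal gene CSMD3 had a sense peak 1779 bp past its end with 8.20, 4.60, 10.9 and 1.91. TOP1 itself, the gene of the CPT target, had 1 sense and 1 antisense peak after 10 min and 1 sense peak after 20 min, none of them found at both.

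The sequence under the peaks was close to that of the windows in general. In stretches of 383 bp centred on the solitary peaks the median GC content was 41.8% at 10 min and 42.6% at 20 min, against 42.6% over all such stretches of the windows, and 38.9% and 39.9% at all solitary peaks of the genome. A polyadenylation signal (AATAAA or ATTAAA) on the gene strand was present in 41.0% and 40.7% of the stretches, as in 40.7% of all. A run of 4 G on either strand was present in 72.9% and 73.6%, and in 76.9% of all.

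Sense and antisense peaks differed in such motifs in mirror image. The polyadenylation signal was under 37.0% and 34.2% of sense peaks and under 45.7% and 49.7% of antisense peaks. A run of 8 A on the gene strand was under 5.31% and 4.76% of sense and 14.2% and 13.8% of antisense peaks, and a run of 8 T on the gene strand under 14.2% and 13.8% of sense and 4.70% and 3.90% of antisense peaks, beside 11.2% for A and 11.6% for T over all stretches. Read on its own strand, either kind of peak thus had more runs of T than runs of A. These are matches of letters and not mapped sites.

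The base before the break-side edge, read on the strand of the peak, was T in 44.5%, 43.5%, 42.0% and 40.4% of the peaks in the 4 libraries and G in 9.81%, 10.3%, 10.3% and 9.01%, while A and T each make up 27.9% to 29.8% of the zones of the windows. Other solitary peaks had T there in 46.7%, 44.5%, 43.7% and 43.0%, so the feature was shared with the rest of the genome. The high share of T was not particular to that base. At the base just after the first base of the peak, T made up 44.2%, 49.4%, 40.5% and 45.5% at gene ends. The edge of a called peak need not be the exact position of a break.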

How the data were processed

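END-seq libraries of HCT116 cells were aligned by the authors to hg19 with Bowtie2 after trimming with Trim Galore, and proper pairs of mapping quality 30 or more, duplicates included, were kept with SAMtools and split by orientation of the first read. The authors called peaks per library and strand with MACS2 against the control, with the local background off and q of 0.05, without pooling replicates. In the 8 deposited lists each peak has a score, a fold enrichment ratio, a −log10 p-value and a −log10 q-value. Spike-in scaling came after peak calling and does not enter these lists, and such peak values were used here only to rank, filter or describe.

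Gene ends came from GENCODE release 44 mapped to GRCh37, where no peak of chromosomes 1 to 22 ran past a chromosome end. All peaks and genes were handled with numpy 2.4.6, pandas 2.3.3 and scipy 1.17.1 in Python 3.11.15. Intervals are Woolf for odds ratios and Wilson for shares, at 95%. Log2 ratios per library were compared by two-sided exact sign-flip tests and times by exact permutation, in code tested on simulated data. Genes were named by the number of peaks found at both times (12 genes), by the rank of −log10 q in the library where a peak ranked lowest (2 per strand combination), and from the lists (up to 5 each). The members and lists were chosen with earlier results of these data known. Alternatives were −log10 q of at least 3 or 10, lists limited to 286491 peaks each, a distance of 500 bp, an overlap of 50%, genes of at least 50 kb, protein-coding neighbours only, and leaving out peaks in 2 windows, ends near assembly gaps, the 4 gained chromosomes, high-copy sequence or each library. The X chromosome, read counts and the study's comparison with untreated cells were not used here.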

Additional observations from a re-analysis of the deposited data

How the results depend on the processing

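The sense preference, its fall past the end, its higher level at genes over 200 kb than at genes of 20 to 50 kb, the density against the genome, the convergent ends and the lower density at long genes kept their direction in every alternative that gave a value. With 4 libraries none of these tests can pass 0.05. Over all alternatives the mean log2 sense odds ratio ran from 0.46 to 0.66, its change past the end from -0.61 to -0.41, and its difference between genes over 200 kb and genes of 20 to 50 kb from 0.93 to 2.23. The density ratios moved more: the mean log2 ratio against the genome ran from 0.065 to 0.17 (highest at a −log10 q of at least 10), that of convergent ends from 0.084 (a solitary distance of 500 bp) to 0.37 (a −log10 q of at least 10) and that of long genes from -0.47 (a −log10 q of at least 10) to -0.075 (500 bp), with -0.076 without CPT20 replicate 1 and -0.23 with lists of equal length. Past against inside the end reached -0.13 at a −log10 q of at least 10. Windows against gene interior, near 0, turned to a mean log2 ratio of -0.0027 with lists of equal length and -0.0070 without peaks in 2 windows. Leaving out 1 library in turn gave -0.014 to 0.0067 for it, negative without CPT20 replicate 2, and -0.038 to 0.0096 for past against inside the end, positive without CPT20 replicate 2.

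The number of solitary peaks at gene ends after 10 and 20 min was 1223 and 1135 at a −log10 q of at least 3, 39 and 40 at 10, 998 and 1195 with lists of equal length (where 20 min had the more), 4120 and 2787 with protein-coding neighbours only, and 1697 and 1135 for genes of at least 50 kb. The share found at the other time was 11.3% of the 10 min peaks at a −log10 q of at least 3, 12.8% at 10, 12.02% with equal lists and 7.83% without chromosomes 8, 10, 16 and 17, and for 20 min peaks 10.2% with equal lists and 11.8% without those chromosomes. The sense share, an addition made after seeing the data together with both contrasts of the sense preference and the low-copy setting, was 51.3% and 55.0% at a −log10 q of at least 10, on few peaks, and 56.6% at 10 min for genes of at least 50 kb. The causes were not tested. The comparison by gene length could not be made with genes of at least 50 kb, and the counts cannot leave out a library because they need both replicates.

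Replicate numbers are shared between times. The study's methods list 2 experiments, each with both times, and the labels do not tie the numbers to them. Differences between replicates 1 and 2 over 2714 bins of 1 Mb correlated between the times (r = 0.53, a description). The fit with a replicate block gave the same CPT20 minus CPT10 differences, such as a log2 odds ratio of 0.10 for the sense preference, with exact sign-flip p of 0.5 to 1, where 2 pairs allow none below 0.5. With both times averaged per replicate number, a setting added after seeing the data, p was 0.5 to 1 and the means were unchanged by construction. Depth was not given by the lists, and CPT20 replicate 2, with the fewest peaks, set the precision.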
